A study of Mus musculus with 12 samples.

Results

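The genes described here encode the synaptonemal complex, the protein zipper that holds paired homologous chromosomes together in meiotic prophase, and the HORMA proteins that sit on its unpaired axes. The set was defined by name, as Sycp1, Sycp2, Sycp3, Syce1, Syce2, Tex12, Hormad1 and Hormad2. Its rule used no measured value, but the names were chosen with earlier results of these data known. Every probe set whose RefSeq transcript belongs to a listed gene was taken. Of the 8 genes, 6 had a probe set, 9 probe sets in all, out of 16579 genes with a probe set in the series. The HORMA genes Hormad1 and Hormad2 had no matched probe set and are not analysed here.

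In a synaptonemal complex, SYCP2 and SYCP3 form the axial element along each chromosome, SYCP1 forms the transverse filaments that bridge a pair of axes, and SYCE1, SYCE2 and TEX12 belong to the central element that joins the filaments. In the female mouse the complex assembles in the fetal ovary and is taken apart around birth, when oocytes enter their long prophase arrest. An oocyte resuming meiosis in the adult has thus passed the stage at which the complex works. The arrays compare polysome-bound levels of its measured mRNAs at that time between stages and genotypes, without calls of whether an mRNA was detected.

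The samples were mouse oocytes on 12 Affymetrix arrays, 3 in each of 4 groups. Females were primed with PMSG, a driver of follicle growth, and given hCG, a substitute for the ovulatory LH surge, after 48 h. Germinal vesicle (GV) oocytes, arrested in prophase, were collected at hCG 0 h and metaphase II (MII) oocytes, the mature eggs, at 14 h. At each stage the groups were wild type and Areg -/-, mice without amphiregulin, an EGF-family ligand made by granulosa cells. Both genotypes carry the strain label C57BL/6J 129Sv. The labels do not give the age of the mice or the number of animals or oocytes in a sample. Arrays of a group are titled as biological replicates. The amphiregulin deletion is not labelled as restricted to a cell type. Values are RMA log2 intensities of polysome-bound mRNA, so a difference of 1 means a doubling relative to the rest of the array.

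The arrays carried oocyte mRNA. All 16 oocyte markers lay above the median gene, with a median at the 99.5th percentile of all genes. Their summed log2 values separated the stages, at 201.86 to 203.79 on the GV arrays and 187.6 to 192.39 on the MII arrays. Single oocyte markers went both ways. Oosp1, Ddx4, Dazl, H1f8 and Mos had higher means at MII in both genotypes, and the others had lower ones, Figla most of all. Of 17 cumulus and granulosa markers, 13 lay below the median gene, and their summed log2 values spanned 75.71 to 85.20 in wild-type GV, 76.53 to 82.59 in wild-type MII, 76.15 to 86.73 in knockout GV and 79.96 to 89.44 in knockout MII. The LH receptor gene Lhcgr and the cumulus gene Tnfaip6 were near the lowest values, with group means of 2.29 to 2.50 and 2.24 to 3.30, whereas Cyp19a1 had group means of 8.45 to 10.59. Of 8 measured blood and stroma markers, 6 lay below the median gene. Areg itself had group means of 2.36 to 2.72, no higher in wild type than in the knockout at either stage beyond the spread (limma adjusted p = 1.0 and 0.99), so the arrays do not check the genotype labels. The interquartile range of an array, the width of its middle values, was 3.97 to 4.67 in the GV arrays and 3.36 to 4.07 in the MII arrays. This width moved with stage, and its part in the changes below was tested only as a covariate of the fit. The 3′ minus 5′ differences of the controls Actb and Gapdh, signs of RNA quality, moved with stage too, in opposite directions. For Actb the group means were 0.37 at GV and -1.17 at MII in wild type and 0.05 and -0.77 in the knockout. For Gapdh they were 2.00 and 3.23 in wild type and 2.48 and 2.71 in the knockout. In the knockout the stages overlapped for both, with Actb at -0.55 to 0.57 at GV and -1.18 to -0.48 at MII. Gapdh there spanned 1.91 to 3.33 at GV and 2.13 to 3.34 at MII. The part of these and of the marker sums in the results was not tested.

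A sequence feature that bears on translation is the 5′ terminal oligopyrimidine tract, carried by mRNAs of ribosomal proteins, in which the mRNA begins with a C and runs on in pyrimidines. The first 20 bases at annotated starts of the 6 measured genes are shown because they are the only piece of these mRNAs in which such letters could be looked for here. They are given 5′ to 3′ on the gene's strand, from RefSeq on GRCm38.p6, with the first 5 bases in capitals, where a C followed by 4 pyrimidines would lie.
Sycp2 (chr2:178407639-178407658, minus strand): ATCACttccggctgacccat
Sycp3 (chr10:88459587-88459606, plus strand): ATGGCgttcagccaatcagc
Sycp1 (chr3:102936081-102936100, minus strand): AGTCCcgcgagttctcgggc
Syce1 (chr7:140787835-140787854, minus strand): AGCCTggaagctgctgcggc
Syce2, first start (chr8:84872111-84872130, plus strand): GAGTTcgccgcccccggggg
Syce2, other start (chr8:84872258-84872277, plus strand): GTGCGgtgcggtttcccgtg
Tex12 (chr9:50561249-50561268, minus strand): GGCAGgtcgtggccgaatct
None of these 7 starts held the letters, and each began with a purine. Over all starts of genes with a probe set 2.35% held them, and over 25 starts of cytosolic ribosomal protein genes 24.0% did. The Sycp2 gene is annotated up to chr2:178407776, beyond the start shown, and that outer end was not examined. An annotated start can differ from the one used in oocytes, so the absence speaks only of these letters at these positions.

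From GV to MII the axial element genes behaved differently from each other. Polysome-bound Sycp2 mRNA rose in both genotypes, 2.84-fold in wild type and 2.70-fold in the knockout, while no change was called for Sycp3. The log2 intensities of Sycp2 in wild type were 10.18, 9.59 and 9.09 at GV and 11.04, 11.41 and 10.93 at MII. In the knockout they were 10.04, 9.30 and 9.40 at GV and 11.24, 10.58 and 11.20 at MII. Every MII array was above every GV array, in both genotypes. On the log2 scale Sycp2 rose by 1.51 ± 0.33 in wild type, and in the knockout by 1.43 ± 0.33 (SE, 3 arrays a group), with limma adjusted p = 0.0074 and 0.0097. Their 95% confidence intervals were 0.78 to 2.24 and 0.70 to 2.16. In these samples a change in polysome-bound mRNA cannot be split into ribosome loading and amount of transcript, and fewer oocytes cannot be told apart from less RNA per oocyte.

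Sycp3 encodes the filament-forming partner of SYCP2. Its log2 intensities were 10.50, 10.34 and 10.34 in wild-type GV and 10.69, 10.12 and 10.47 in wild-type MII. In the knockout they were 10.64, 10.65 and 10.18 at GV and 10.84, 10.64 and 10.68 at MII. The stages overlapped in both genotypes, and all 12 values lay within 10.12 to 10.84, the narrowest range among the 6 genes. The difference was 0.03 [-0.47, 0.53] in wild type and 0.23 [-0.27, 0.73] in the knockout (95% confidence interval, limma adjusted p = 0.93 and 0.44). After a further quantile normalisation of the arrays the knockout difference was 0.58 and passed (adjusted p = 0.043), as did the difference averaged over the genotypes (0.38, adjusted p = 0.043). The same step lowered the median difference of all genes in the knockout from 0.30 to 0.14. Relative to that median, Sycp3 in the knockout stood at -0.07 in the deposited values and at 0.43 after the step, so no direction is given for it.

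**Figure D1:**
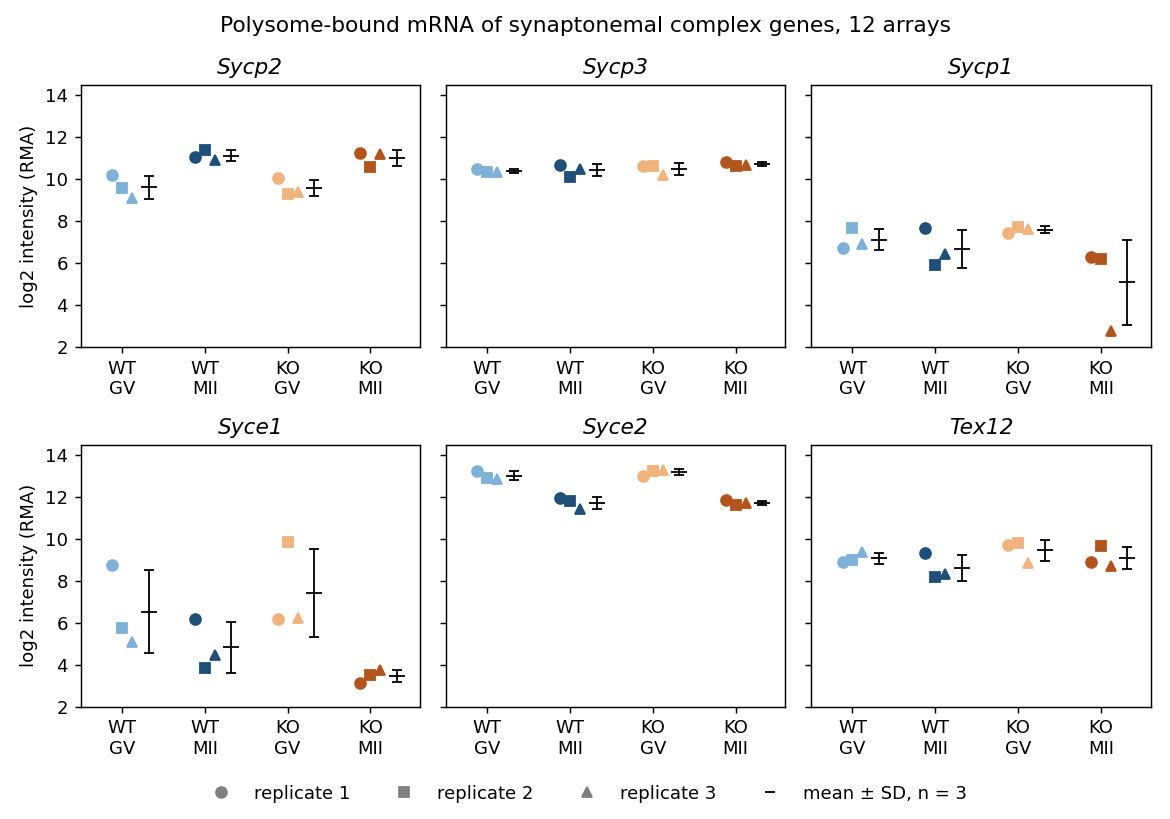
Each point is the RMA log2 intensity of polysome-bound mRNA of a gene on an array, by genotype (WT, wild type; KO, Areg -/-) and stage, with the shape marking the replicate number and the bar beside each group its mean ± SD (n = 3). Sycp2 is higher and Syce2 lower on every MII array than on every GV array of the same genotype, while Sycp1 and Syce1 scatter widely, with a Sycp1 value of 2.75 in knockout MII 3.

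Within the central element, Syce2 fell in both genotypes, 2.45-fold in wild type and 2.74-fold in the knockout, and no change was called for Tex12, whose protein assembles with SYCE2 into fibres along the complex. Syce2 had 4 probe sets, for different RefSeq transcripts, whose values were identical on every array, so they count as 1 measurement. Its log2 intensities were 13.27, 12.91 and 12.88 in wild-type GV and 11.96, 11.81 and 11.42 in wild-type MII. In the knockout they were 13.02, 13.23 and 13.30 at GV and 11.84, 11.65 and 11.71 at MII. No MII value reached the lowest GV value. Syce2 fell by 1.29 on the log2 scale (SE 0.22) in wild type and fell by 1.45 (SE 0.22) in the knockout, with limma adjusted p = 0.0019 and 9.4e-04 (n = 3 arrays per group). Syce2 stayed bright after its fall, and its lowest value among the 12 arrays was above 96.0% of the values of that array.

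Tex12 had log2 intensities of 8.89, 8.98 and 9.39 in wild-type GV and 9.34, 8.18 and 8.35 in wild-type MII. In the knockout they were 9.72, 9.79 and 8.87 at GV and 8.92, 9.67 and 8.69 at MII. The stages overlapped in both genotypes. The difference was -0.46 [-1.32, 0.39] in wild type and -0.37 [-1.22, 0.49] in the knockout (limma adjusted p = 0.42 and 0.47). The wild-type interval holds both no change and a fall as large as that of Syce2.

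Syce1 encodes a central element protein that binds SYCP1, and it was the most variable of the genes. Its log2 intensities were 8.78, 5.76 and 5.07 in wild-type GV and 6.20, 3.87 and 4.44 in wild-type MII, where the stages overlapped. In the knockout they were 6.18, 9.85 and 6.23 at GV and 3.14, 3.51 and 3.73 at MII, and all 3 MII values were below all GV values. The knockout MII values were dim, at the 10.5th, 12.5th and 14.7th percentile of their arrays. Syce1 fell by 3.96 (SE 1.11) in the knockout with limma adjusted p = 0.023, and the difference in wild type was -1.70 [-4.14, 0.74] with adjusted p = 0.31. The knockout call was lost with the array width as a covariate (-2.40, adjusted p = 0.52). It was also lost without knockout GV 2 (-2.75), without knockout MII 2 (-3.99) or without knockout MII 3 (-4.10), and over the 20 alternatives tried its adjusted p ranged from 0.013 to 0.52.

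Sycp1 encodes the transverse filament protein. Its log2 intensities were 6.74, 7.68 and 6.93 in wild-type GV and 7.67, 5.89 and 6.43 in wild-type MII, where the stages overlapped. In the knockout they were 7.42, 7.73 and 7.64 at GV and 6.27, 6.19 and 2.75 at MII, and every MII value was below every GV value. The value of 2.75, in knockout MII 3, was at the 3.91th percentile of that array, and the other 11 values were at the 52.2th to 71.8th. Sycp1 fell by 2.52 (SE 0.81) in the knockout with limma adjusted p = 0.040, and the wild-type difference was -0.45 [-2.23, 1.33] with adjusted p = 0.72. Without knockout MII 3 the knockout difference was -1.36 and did not pass (adjusted p = 0.071), and with the array width as a covariate it was -1.08 (0.71). The call was also lost without any knockout GV array or without wild-type GV 1, GV 2 or MII 3. It was lost too after a further quantile normalisation (-2.24, 0.092) and with the knockout groups alone (0.086). A pseudogene, Sycp1-ps1, is annotated elsewhere in the genome, and whether it shares probes with Sycp1 was not tested.

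**Figure D2:**
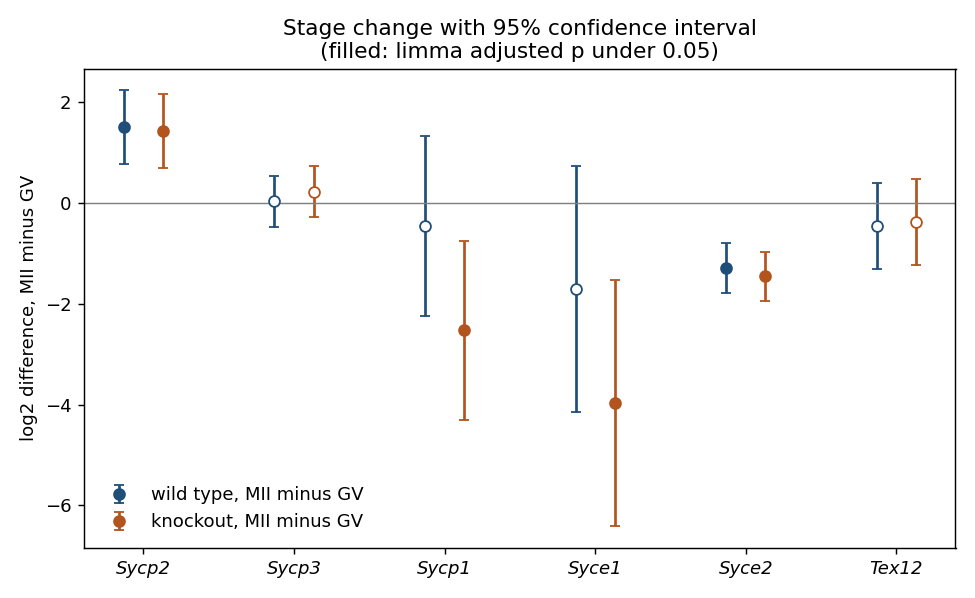
The log2 difference of MII minus GV is shown for each gene in wild type (blue) and knockout (brown), with limma's 95% confidence interval, and filled circles mark an adjusted p under 0.05. Sycp2 is above 0 and Syce2 below 0 in both genotypes, and the wide intervals of Sycp1 and Syce1 overlap between genotypes.

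In counts, 1 of the 6 genes rose and 1 fell in wild type, against 21.6% of all 16579 genes called in either direction, 8.97% higher and 12.6% lower. In the knockout 1 rose and 3 fell, against 28.2% of all genes, 13% higher and 15.2% lower. The balance over all genes depended on the scaling: of the calls, 41.6% were higher in wild type and 46.0% in the knockout, against 51.5% and 54.1% after a further quantile normalisation. Stages did not overlap for 2 of the 6 genes in wild type and for 4 in the knockout, against 39.2% and 51.6% of all genes. Counts over 6 genes are given as a description. The median difference of the 6 genes was -0.46 in wild type and -0.91 in the knockout, against 0.20 and 0.30 over all genes. Relative to the median of all genes, Sycp2 stood at 1.31 in wild type and 1.13 in the knockout, and Syce2 at -1.49 and -1.75. In wild type 19.4% of all genes had a larger absolute difference than Sycp2 and 23.9% a larger one than Syce2, and in the knockout 21.6% and 21.1% did. Averaged over the genotypes, Sycp2 rose by 1.47 ± 0.23, Syce2 fell by 1.37 (SE 0.16) and Syce1 fell by 2.83 (SE 0.78), with limma adjusted p = 5.6e-04, 5.6e-05 and 0.015, where 44.1% of all genes were called, 24.1% higher and 20% lower. The averaged call of Syce1 was lost with the array width as a covariate (-1.61). The averaged difference of Sycp1 was -1.49 and did not pass (adjusted p = 0.054).

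Genes whose proteins work as partners were set against each other within each array, which removes what an array does to both alike. The 3 pairs were chosen with the values known, so the shifts are a description, with no test. Only the shift between stages is read, since the levels of different probe sets do not compare. Measured from its mean over the 6 GV arrays, Sycp2 minus Sycp3 lay at -0.51 to 0.53 on the GV arrays, at 1.19 to 2.14 in wild-type MII and at 0.79 to 1.36 in knockout MII. Averaged over the genotypes the MII arrays stood 1.34 above the GV arrays, with no overlap between stages.

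Syce2 minus Tex12 lay at -0.53 to 0.61 on the GV arrays, at -1.21 to -0.20 in wild-type MII and at -1.85 to -0.81 in knockout MII. The averaged difference between stages was -0.96, with some overlap in wild type. For Sycp1 minus Syce1 it was 1.35, with wide overlap. Its value without a given array ranged from 0.69, without wild-type GV 1, to 1.99, without knockout MII 3.

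**Figure D3:**
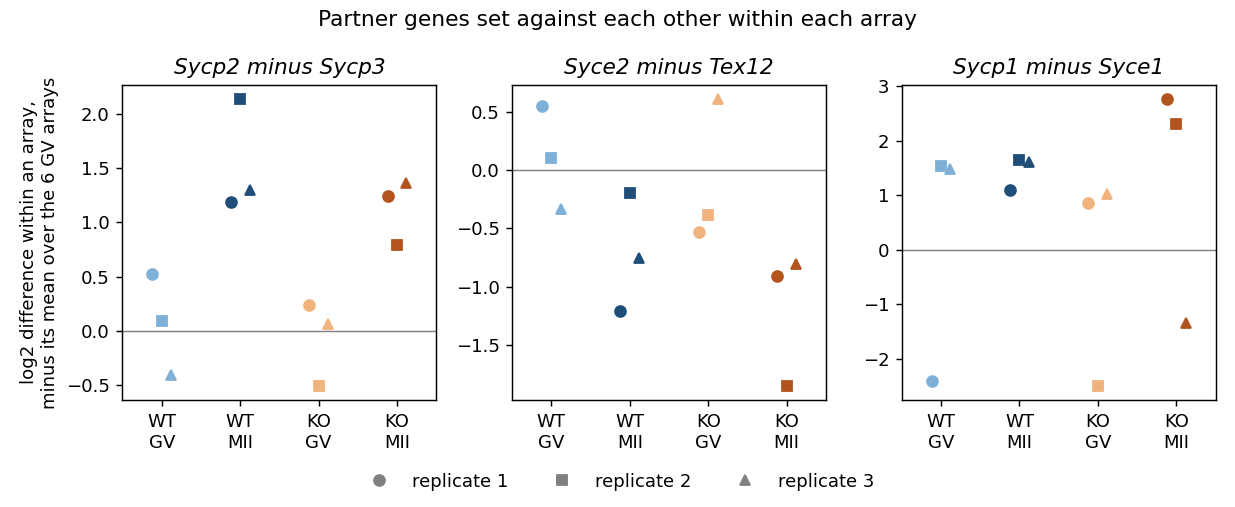
Each point is the log2 intensity of a gene minus that of its partner on the same array, less the mean of that quantity over the 6 GV arrays, by genotype (WT, wild type; KO, Areg -/-) and stage, with the shape marking the replicate number. The Sycp2 minus Sycp3 points of the MII arrays (0.79 to 2.14) all lie above those of the GV arrays (-0.51 to 0.53), and the vertical scales differ between panels.

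Between the genotypes, limma called none of the 6 genes at either stage. The same test called 0 of 16579 genes, 0%, at GV and 10, 0.0603%, at MII (0.00603% higher and 0.0543% lower), of which 0 were called with the replicate number as a block, and at an unadjusted p under 0.05 the counts were 589 and 1024 genes, with 0 of the 6 genes at either stage. The share of all genes whose genotypes did not overlap was 9.84% at GV and 8.3% at MII. Among the 6 genes it was Syce1 alone, at MII, where all 3 knockout values were below all wild-type values. Knockout minus wild type at GV was between -0.04 for Sycp2 and 0.88 for Syce1. For Sycp2 the interval was -0.77 to 0.69, for Sycp3 -0.40 to 0.60, for Syce2 -0.32 to 0.65 and for Tex12 -0.48 to 1.22. At MII the differences of these 4 genes were -0.12 [-0.85, 0.61], 0.29 [-0.21, 0.80], 0.00067 [-0.49, 0.49] and 0.47 [-0.39, 1.32]. The intervals of Sycp1 and Syce1 were wider, at -1.30 to 2.26 and -1.56 to 3.33 at GV and at -3.37 to 0.19 and -3.82 to 1.06 at MII, so sizeable differences in these genes were not detectable.

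The stage changes of Sycp1 and Syce1, called in the knockout alone, were not shown to differ between genotypes. The interaction, which subtracts the stage change in wild type from that in the knockout, was -2.07 [-4.59, 0.45] for Sycp1 and -2.26 [-5.72, 1.19] for Syce1 (limma adjusted p = 0.94 for both). For Sycp2 it was -0.07 [-1.11, 0.96], for Sycp3 0.20 [-0.51, 0.91], for Syce2 -0.16 [-0.85, 0.53] and for Tex12 0.10 [-1.11, 1.30]. Over all genes the interaction was called for 0 of 16579, and 772 had an unadjusted p under 0.05, none of them among the 6.

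For each gene with a stage call, the genes of most similar pattern were sought by the root mean square difference over the 12 arrays, each gene centred on its own mean, where the median over all genes was 0.84 for Sycp2, 0.98 for Syce2, 1.51 for Sycp1 and 2.16 for Syce1. Closest to Sycp2 were Birc3 (0.21), the nuclear import receptor gene Ipo5 (0.23) and the mismatch repair gene Msh6 (0.25). Closest to Syce2 were Hpd (0.16), Eif4a3 (0.20), a core subunit gene of the exon junction complex, and the respiratory subunit gene Cox6a2 (0.23). Closest to Sycp1 were Eef1e1 (0.48), Srp72 (0.57) and Arpc2 (0.58), and closest to Syce1 were Rtl6 (0.91), Nudcd2 (0.99) and Thyn1 (1.01). The distances to Sycp1 weigh a single array heavily, since Sycp1 was 2.75 in knockout MII 3 and 5.89 to 7.73 elsewhere. No member was among the 3 closest genes of another, and the smallest distance between a called member and any other member was 0.67, between Syce2 and Tex12.

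A wider list of 51 genes of meiotic prophase gave the setting, and 37 of them had a probe set. In wild type 5 rose and 10 fell, and in the knockout 4 rose and 10 fell, with medians of 0.04 and 0.03 against 0.20 and 0.30 over all genes. That is 40.5% and 37.8% called, against 21.6% and 28.2% of all genes. A total of 10 changed the same way in both genotypes, 2 higher and 8 lower, and 18 passed in neither. Calls in the list went in both directions, as they did among the synaptonemal complex genes and among all genes. Over all genes 8.97% were called higher and 12.6% lower in wild type, and 13% and 15.2% in the knockout.

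Among genes of double-strand break formation and strand exchange, Rec114, a partner of the break machinery, fell by 4.09 in wild type and fell by 3.55 in the knockout. Psmc3ip, which encodes the strand exchange cofactor HOP2, fell by 2.89 and fell by 2.85. Brme1, listed in the annotation as 4930432K21Rik and acting with BRCA2 in meiosis, fell by 2.99 and fell by 3.69. Msh4, whose protein stabilises crossover intermediates, rose by 2.39 and 2.25, and Sun1, which tethers telomeres to the nuclear envelope, rose by 1.62 and 2.01. Over both genotypes these 5 genes had limma adjusted p from 2.9e-05 to 0.0080. The call of Rec114 in the knockout (-3.58) was lost with the array width as a covariate.

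A further 4 genes fell in both genotypes. Meikin, which directs kinetochores in the first division, fell by 3.41 and fell by 2.95, and Fkbp6 fell by 2.97 and fell by 2.43. Cdk2, a kinase found at meiotic telomeres and crossover sites, fell by 2.11 and fell by 1.88, and Skp1, a ubiquitin ligase subunit, fell by 1.01 and fell by 0.67 (limma adjusted p 0.0053 to 0.038 for these 4 genes). In the knockout, calls were lost without a given knockout array for Meikin (GV 1, GV 2 or MII 2), Fkbp6 (any of the 3 GV arrays, MII 1 or MII 2), Cdk2 (GV 1, GV 2 or MII 3) and Skp1 (any knockout array but MII 2). Skp1 lost it also without wild-type GV 1 or GV 2. In wild type, calls were lost without MII 1 (Fkbp6) and without MII 3 (Meikin and Fkbp6). With the array width as a covariate Meikin and Cdk2 passed in neither genotype (Meikin -2.66 and -1.62, Cdk2 -1.56 and -0.91), and Skp1 did not pass in the knockout. After a further quantile normalisation Meikin (-2.72) and Fkbp6 (-2.03) did not pass in the knockout, nor did Skp1 among bright genes alone (adjusted p = 0.061).

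The other central element genes and the remover of HORMA proteins are named here for their roles. Syce3, a further central element gene, differed by 0.54 in wild type without passing (limma adjusted p = 0.20) and rose by 0.98 in the knockout (0.027), opposite to the direction of Syce2. Six6os1, listed as 4930447C04Rik, was among the dimmest genes, at the 4.14th percentile, and passed in neither genotype. Trip13, whose ATPase strips HORMA proteins from synapsed axes, differed by -1.69 in wild type and -1.41 in the knockout without passing (0.14 and 0.16). Averaged over the genotypes, Trip13 fell by 1.55 (limma adjusted p = 0.036) and Syce3 rose by 0.76 (0.011). In that comparison 44.1% of all genes were called, 24.1% higher and 20% lower. The calls of Trip13 and Syce3 were not examined singly under the alternatives.

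**Figure D4:**
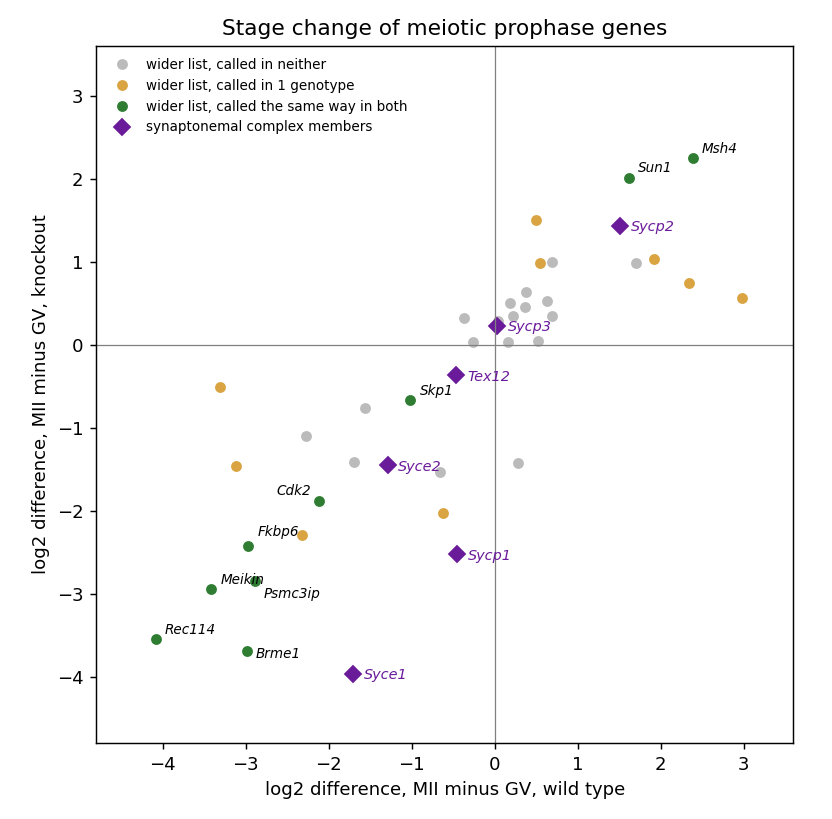
Each point is a gene, placed by its log2 difference of MII minus GV in wild type (horizontal) and in the knockout (vertical), with purple diamonds for the 6 synaptonemal complex genes and circles for 36 of the 37 measured genes of the wider list, coloured by whether limma called them in neither, in 1 or in both genotypes. Msh4 and Sun1 lie with Sycp2 in the upper right, and 7 genes called lower in both genotypes lie with Syce2 in the lower left.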

How the data were processed

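The deposited table held a log2 intensity per probe set and array for 12 arrays, which the authors made with RMA, per the submitters' processing notes, with no version named. This method corrects background, quantile normalises and summarises probes, so differences are relative to the other transcripts. The deposited values still differed in width between arrays, with interquartile ranges of 3.36 to 4.67. Scanner files and detection calls were not used here, and the number of arrays limits precision. Values are read as polysome-bound mRNA, as the protocol describes, although the molecule label is total RNA. All 12 columns were matched to samples by their identifiers.

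Of 23950 probe sets, 21230 matched 1 symbol through a RefSeq table of GRCm38.p6, 0 matched several, and 2656 RefSeq probe sets and 64 controls were left out. The probe set with the highest mean stood for a gene, and 16579 genes were tested. A fit of limma 3.58.1 (R 4.3.3, lmFit and eBayes, no trend, all 12 arrays, a mean per group) gave two-sided p values, with Benjamini-Hochberg adjustment across the genes tested and calls under 0.05, with standard errors (SE) and 95% intervals. Replicates are arrays labelled as biological, and p values measure the spread between them. The fit was tested on simulated data.

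The members and gene lists were chosen with earlier results of these data known. Named besides the 6 genes are, by rule, the 3 genes of closest pattern per called member and the genes of the wider list called the same way in both genotypes, at most 12, of which 1 is not reported here. Names added for their roles are marked as such. Alternatives were a further quantile normalisation, the array width as a covariate, bright genes alone, the mean of a gene's probe sets, each probe set tested separately, compared groups alone, trend and robust, array weights, a replicate block and leaving out each array.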

Additional observations from a re-analysis of the deposited data

How the results depend on the processing

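Of 738 alternative values over 36 gene and comparison pairs, 688 kept direction and side of the threshold, many with no call to lose. All 84 values of the Sycp2 and Syce2 stage changes within a genotype did so, with adjusted p up to 0.046 and 0.031. Settings such as bright genes alone left the difference unchanged, so only its p could move. The count of the 6 genes called in the knockout, 4, was 2 with the array width as a covariate and 2 to 4 without a given array (2 without knockout GV 2 or knockout MII 3). The cause was not tested. Over all genes the same covariate took the knockout calls from 4672 to 1809 and the wild-type calls from 3574 to 3135. In the knockout the width did not overlap between stages, at 4.39 to 4.67 at GV and 3.36 to 4.01 at MII. Stage and width can thus hardly be told apart in the knockout. In wild type they overlapped, at 3.97 to 4.59 and 3.46 to 4.07. The count averaged over the genotypes, 3, was 2 with that covariate, where Syce1 was lost, and 4 at most elsewhere. The other counts among the 6 moved by less than 1.5 times. All 26 changes of sign concerned differences that were called in neither setting. After a further quantile normalisation these were the Tex12 knockout stage change (0.11) and, for Sycp2, the genotype difference at MII (0.016) and the interaction (0.15). With the array width as a covariate they were the Sycp1 wild-type stage change (0.37), the Sycp2 difference at MII (0.0081) and its interaction (0.14). With array weights they were the interactions of Sycp2 (0.064) and Tex12 (-0.010). Without a given array the ranges that crossed 0 were -0.31 to 0.24 for the Sycp2 genotype difference at GV, -0.23 to 0.10 at MII and -0.35 to 0.19 for its interaction. They were -0.20 to 0.45 for the Tex12 interaction, -0.10 to 0.19 for the Sycp3 wild-type stage change, -0.15 to 0.11 for the Syce2 difference at MII and -0.33 to 2.01 for the Syce1 difference at GV. The averaged difference of Sycp1 passed in 7 of 20 alternatives, among them without knockout MII 3 (-0.91, adjusted p = 0.047). Of the wider list, 14 genes were called in the knockout, against 6 with the array width as a covariate and 7 to 14 without a given array (7, 8 and 9 without knockout GV 1, GV 2 and GV 3, 9 without knockout MII 2). Under 13 alternatives chosen after seeing the data, the shift of Sycp2 minus Sycp3 lay between 1.19 and 1.45 and that of Syce2 minus Tex12 between -1.16 and -0.78. The replicate numbers of the titles were not taken as pairing the arrays, since not every same-numbered pair passed 0.1: correlations of same-numbered deviations over genes lay between -0.12 and 0.26, with 10 of 18 over 0.1, among them all 6 pairs of number 1, and an array correlated best with its own number in 20 of 36 comparisons. The replicate block changed no call among the 6 genes, 2 in wild type and 4 in the knockout. Over all genes it called 3749 and 4967, against 3574 and 4672, and 0 against 10 for the genotype difference at MII. Dim genes such as Syce1 at MII have no detection call, so the size of their folds is uncertain. The Syce1 difference in the knockout also leaned on a bright array, at -2.75 without knockout GV 2.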
